A study of Mus musculus with 28 samples.

Results

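Dividing neuroblasts are young neurons caught in the cell cycle. They were found here among single cells of the subependymal zone (SEZ), the germinal layer that lines the lateral ventricles of the adult mouse brain, sorted 1 per well and profiled by SORT-seq, a plate method that counts transcripts at their 3′ ends with random barcodes. A well was taken as a member where it held at least 1000 transcripts outside the ERCC spike-in RNA and passed a pair of sums. The neuroblast gate asked for at least 15 transcripts per 10000 of Dcx, Stmn2, Tubb3, Sp9 and Dlx6os1 together. The division sum asked for at least 3 transcripts of Mki67, Top2a, Ube2c and Birc5 together. Of 2688 wells, 1789 held 1000 transcripts, and 210 of these were dividing neuroblasts.

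Neuroblasts descend from neural stem cells through dividing transit-amplifying progenitors, and they travel along the rostral migratory stream to the olfactory bulb, where most become GABA-releasing interneurons. Many of them keep dividing on the way, so that neuronal and mitotic genes are active in the same cell. Progress through the cycle is read from gene sets that follow each other: E2F factors switch on the replication genes before S phase, and the mitotic genes follow in G2, many of them through a promoter element called the cell cycle genes homology region (CHR).

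All mice were of the Bl/6 strain, and each of the 7 sorts gave 4 libraries of 96 wells. Ki67-RFP cells came from Ki67-tagRFP ki/ki mice, whose Mki67 gene carries a red reporter. Day-2 tdTomato cells came from Ki67-iresCreER +/ki Rosa-tdTomato +/ki mice, in which 5 mg of tamoxifen turned on tdTomato in cells using Mki67, 2 days before the sort. GLAST/EGF cells were picked with an antibody to GLAST, fluorescent EGF, or both, Prom1/CD24 cells with antibodies to Prom1 and CD24, and Troy-GFP cells from Troy-GFPiresCreER +/ki mice. Mice of these 5 sorts were 8 to 10 weeks old. The day-60 tdTomato sort used the same alleles and tamoxifen dose as day 2 with an interval of 60 days, in mice 16 to 19 weeks old. A mixed sort, from mice 8 to 19 weeks old, joined day-60 tdTomato cells of the SEZ and olfactory bulb with cells stained for O4. Tamoxifen labels the cells that use Mki67 on the day it acts and all their descendants, so a day-2 cell need not be dividing when it is sorted. The number of mice behind each library is not given, so the p-values below may measure only technical spread.

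ERCC RNA took 6.57% to 17.7% of transcripts, or 44.3% to 56.8% in Prom1/CD24, which also had the fewest passing wells, 11 to 20 per library. No passing well repeated another well's counts, and all libraries used the same 96 cell barcodes. Among the marker genes of this class, transcripts of Dcx were found in 200 of the 210 members, Sp9 in 181, Mki67 in 189 and Ube2c in 163. These 4 genes are in the rule. These and the next shares are pooled over sorts of different make-up. Dlx1as, an antisense RNA of the Dlx1 locus that is not in the rule, was found in 136 members, in 42 of 125 neuroblast-gate wells without a division transcript and in 41 of 203 dividing wells below the gate. Of the markers of other cells, the endothelial gene Cldn5 was found in 0 members, which allows a share of wells with a transcript of up to 1.43%, and the microglial gene C1qb in 7. Slc1a3, the GLAST gene of astrocytes and stem cells, was found in 79 members (37.6%), in 12% of the gate wells without a division transcript and in 71.9% of the dividing wells below the gate. Mbp, a myelin gene, was found in 38 members (18.1%), in 12.8% of the gate wells without a division transcript and in 16.7% of the dividing wells below the gate.

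Promoters of cell cycle genes are shown here because the mitotic genes chose the members, and of the 4 genes of the division sum 3 held the CHR element. Windows of RefSeq (GRCm38.p6, the mm10 genome), from 250 bases before to 50 after a gene's start, were searched on both strands. The CHR element TTTGAA lay in 17.9% of all 32851 windows. It was found for 35 of the 50 G2 and mitosis genes with a window (70% of them) and for 5 of the 35 S phase genes. A gene counted where any of its windows held the word, so shares of genes and of all windows are unlike measures. The E2F-type word TTTNNCGC lay in 5.17% of all windows, and was found for 15 of 35 S phase genes (42.9%) and 7 of 50 G2 and mitosis genes. CCAAT, which is often found upstream of a CHR element and does not overlap it, lay in 37.4% of all windows. It was found for 39 of the 50 genes and 21 of the 35. Outside the cycle, CCAAT was found for 4 of 4 gate genes with a window and 12 of 18 neuroblast transcription factors. It was also found for 7 of 20 GABA and synaptic genes and 7 of 18 neuroblast cytoskeleton genes. In these 4 lists, in the same order, TTTGAA was found for 2, 4, 7 and 1 genes and TTTNNCGC for 0, 2, 1 and 2. A match is a run of letters and not a shown binding site. Printed below, along each gene's strand from 5′ to 3′, are the bases before the starts of Top2a (chr11:99024190-99024309, minus strand), Mki67 (chr7:135716380-135716499, minus strand) and Cdk1 (chr10:69352939-69353032, minus strand) with TTTGAA or its reverse complement in capitals, and of the replication gene Mcm6 (chr1:128359706-128359825, minus strand) with TTTNNCGC in capitals on either strand.

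Top2a: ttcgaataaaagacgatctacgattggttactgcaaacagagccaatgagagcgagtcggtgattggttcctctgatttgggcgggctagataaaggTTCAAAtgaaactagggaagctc
Mki67: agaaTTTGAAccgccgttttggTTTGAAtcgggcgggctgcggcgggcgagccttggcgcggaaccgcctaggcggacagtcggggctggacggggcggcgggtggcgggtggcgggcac
Cdk1: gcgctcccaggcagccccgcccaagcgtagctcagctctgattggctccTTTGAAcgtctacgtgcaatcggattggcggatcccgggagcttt
Mcm6: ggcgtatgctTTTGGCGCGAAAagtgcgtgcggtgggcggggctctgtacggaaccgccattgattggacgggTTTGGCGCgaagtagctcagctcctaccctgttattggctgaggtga

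The window of Ube2c held TTTGAA as well, starting 29 bases before the gene's start, while that of Birc5 held none of the 3 words. Gene positions here and below are from GENCODE M21 on mm10. Mki67 (chromosome 7, 135689784 to 135716361, minus strand) encodes Ki-67, which coats mitotic chromosomes. Top2a (chromosome 11, 98992943 to 99024189, minus strand) encodes the topoisomerase that untangles sister chromatids, Ube2c (chromosome 2, 164769898 to 164778822, plus strand) the ubiquitin-conjugating enzyme of the anaphase-promoting complex, and Birc5 (chromosome 11, 117849251 to 117855743, plus strand) survivin, of the chromosomal passenger complex. Of the gate genes, Dcx (X chromosome, 143855842 to 143933311, minus strand) encodes the microtubule binder doublecortin and Sp9 (chromosome 2, 73271925 to 73284706, plus strand) a transcription factor of striatal neurons and olfactory interneurons. Dlx6os1 (chromosome 6, 6820189 to 6871592, minus strand) and Dlx1as (chromosome 2, 71516454 to 71537891, minus strand) are antisense RNAs that overlap Dlx genes, and since the strand setting of the counting is not given in the sources used here, their transcripts and those of their partners may be mixed.

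Within the members, neuronal and mitotic transcripts stood side by side. The gate sum ran from 15.2 to 123 transcripts per 10000 with a median of 36.4, and the division sum ran from 3.01 to 116 transcripts with a median of 22.3. All 4 division genes were found in 132 members and at least 3 in 184, and all 5 gate genes were found in 153. The lowest gate sums among members were 15.23, 15.26 and 15.65 per 10000, and the highest among dividing wells just below the gate were 14.997, 14.98 and 14.87. At the other threshold, 15 members had the lowest division sum, and 26 gate wells stopped just short of it at 2.01 transcripts. These values chose the members and are a description. Across the 210 members the gate sum, taken per 10000, and the division sum, taken per 10000, were nearly unrelated (Spearman's rho = 0.18). The points share wells and depth, and the gate sum was lower in deeper wells (rho = −0.46).

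**Figure D1:**
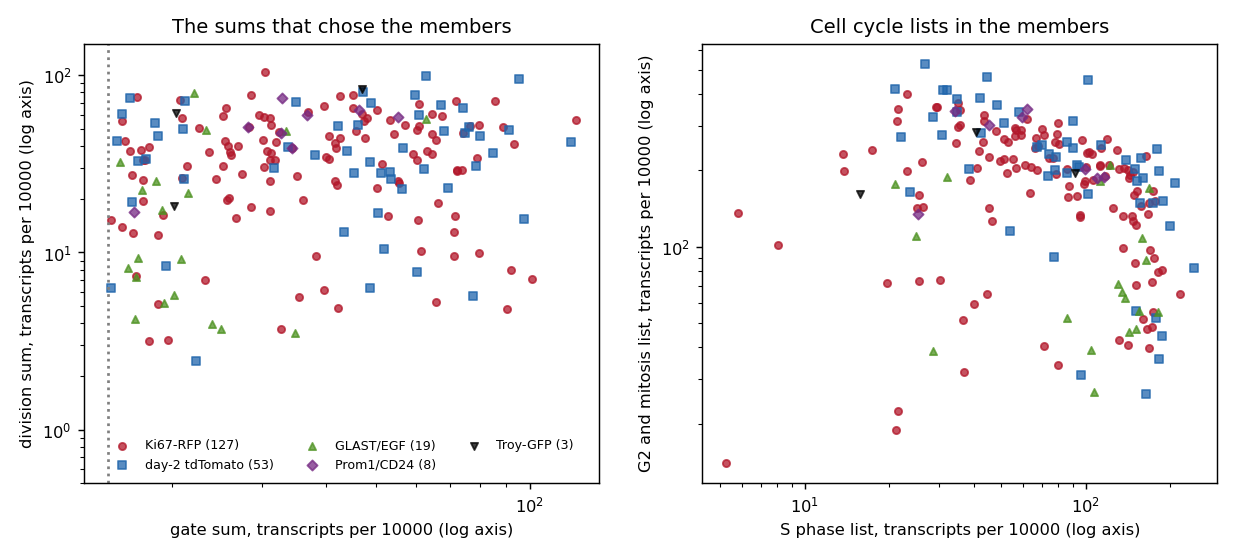
Left, each dividing neuroblast by its neuroblast gate sum (horizontal, dotted line at 15) and its division sum (vertical), both as transcripts per 10000 on log axes. Right, the same wells by the summed S phase list and the summed G2 and mitosis list, as transcripts per 10000 on log axes. Colours and shapes mark the 5 sorts that held members; over all 210 wells rho was 0.18 on the left and −0.41 on the right.

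Nearly all members held transcripts of GABA synthesis, and few held those of Egfr. A transcript of Gad1 or Gad2, the enzymes that make GABA, was found in 202 of 210 members. Summed over 29 genes of GABA signalling and synaptic maturation, the level had a median of 54.9 transcripts per 10000 and was higher in wells with a higher gate sum (rho = 0.68). Egfr, the EGF receptor of activated stem cells and progenitors, was found in 36 members. Ccnd2, the D-type cyclin of these cells, was found in all 210 members, and Ccnd1 in 6.

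Members covered the cycle from S phase to mitosis. The S phase list, 44 genes of replication such as Pcna, Mcm6 and Rrm2, had a median of 79.8 transcripts per 10000, and the G2 and mitosis list, 61 genes without those of the rule, a median of 197. Wells high in one list tended to be low in the other (rho = −0.41 over all members, −0.69 in 53 day-2 wells, −0.32 in 127 Ki67-RFP wells). The gate sum tended to be lower in wells with a higher S phase list (rho = −0.35 over all members, −0.46 in Ki67-RFP, −0.15 at day 2). With the G2 and mitosis list the gate sum had rho = 0.17 over all members. The 19 GLAST/EGF members had medians of 131 for the S phase list and 66.1 for the mitotic list, against 73.9 and 198 in Ki67-RFP and 86.1 and 221 in day-2 members. GLAST/EGF members were also deeper, with a median of 12838 transcripts against 6214 and 6503, so that fewer mitotic transcripts per 10000 were enough for the raw sum of 3. They had a lower gate sum, with a median of 20.2 per 10000 against 36.96 and 49.1. The differences between sorts within this paragraph were not tested.

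**Figure D2:**
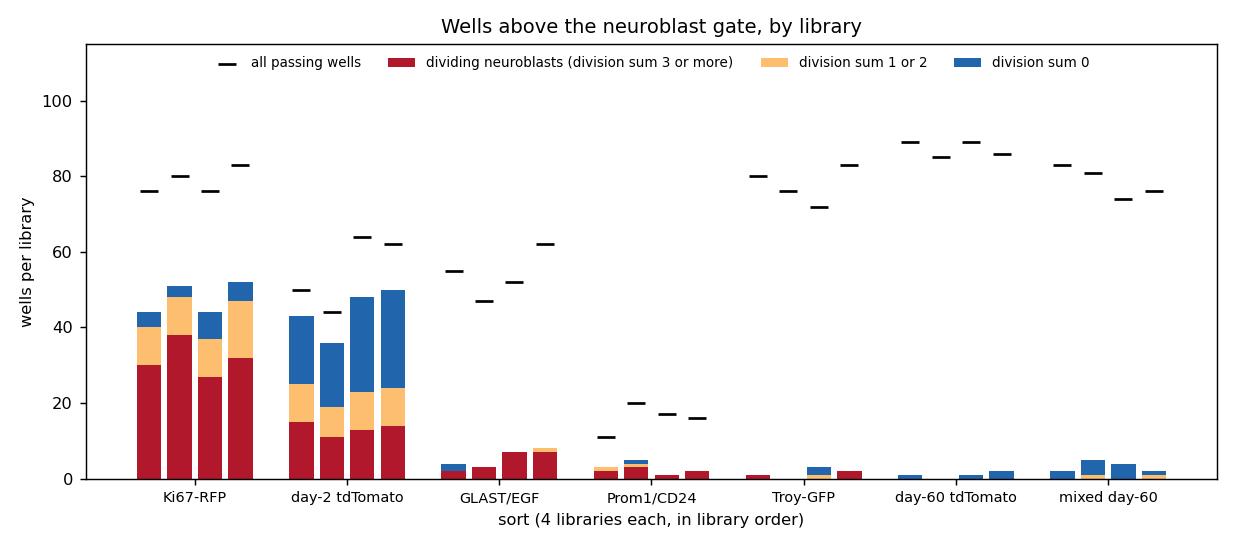
Wells above the neuroblast gate in each of the 28 libraries, grouped by sort, split by division sum: 3 or more (dividing neuroblasts, red), 1 or 2 (orange) and 0 (blue). Black ticks give all passing wells of the library. Ki67-RFP libraries held 27 to 38 dividing neuroblasts, day-2 libraries 11 to 15, and the day-60 libraries 0.

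Most members came from the sorts aimed at Mki67 expression, 60.5% from Ki67-RFP and 25.2% from day-2 tdTomato. Ki67-RFP libraries 1 to 4 held 30, 38, 27 and 32 of them, and day-2 tdTomato libraries held 15, 11, 13 and 14. GLAST/EGF held 2, 3, 7 and 7, Prom1/CD24 held 2, 3, 1 and 2, and Troy-GFP held 1, 0, 0 and 2. None was found among 349 day-60 wells, which allows a share of up to 0.860%, or among 314 wells of the mixed day-60 sort, which allows up to 0.955%. These limits cover counting error only.

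As a share of passing wells, dividing neuroblasts made up 40.3% ± 5.11 (SD, n = 4 libraries) of Ki67-RFP, 24.5% ± 4.15 of day 2, 12.9% ± 5.22 of Prom1/CD24, 8.69% ± 4.49 of GLAST/EGF and 0.915% ± 1.16 of Troy-GFP. Of the 21 pairs of sorts, 17 differed at the smallest p that 4 against 4 libraries allow (2-sided exact permutation test, p = 0.0286, adjusted p = 0.0353). The pairs that did not pass were GLAST/EGF against Prom1/CD24 (p = 0.257, exact permutation test), Troy-GFP against either day-60 sort (p = 0.429, exact permutation test) and the 2 day-60 sorts, both at 0. The sorts were gated on different markers, and the gates cannot be told apart from other differences between the sorts. Ki67-RFP was gated on a reporter of Mki67, which is in the division sum, and day-2 cells were labelled through Mki67. Prom1/CD24 cells were stained for CD24, a surface protein used to sort neuroblasts. The share also counts wells chosen by the rule. All pairs of sorts are therefore a description, and their p-values are no independent support.

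Among wells above the neuroblast gate, the dividing share was 68.2%, 74.5%, 61.4% and 61.5% in Ki67-RFP libraries 1 to 4 and 34.9%, 30.6%, 27.1% and 28% in day-2 libraries. Every Ki67-RFP library lay above every day-2 library. The means were 66.4% ± 6.27 and 30.1% ± 3.49 (SD, n = 4), and the difference of 36.3 percentage points had the smallest p possible (exact permutation test, p = 0.0286). Ki67-RFP cells were sorted on a reporter of Mki67, which is in the division sum, so a higher dividing share there goes with the sort. The difference is a description, and its p-value is no independent support. Wells without any division transcript were the larger group at day 2, 86 wells against 19 in Ki67-RFP. The sorts also differ in mouse line, day of sort and, by the deposited names, flow cell, and these cannot be told apart.

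The central comparison asked how a neuroblast with division transcripts differs from one without. It was made within the day-2 libraries, between sums of 53 dividing neuroblasts (11 to 15 per library) and 86 division-sum-0 neuroblasts (17 to 26 per library) that passed the same gate. Both classes carried the same label and came from the same plates. Dividing wells were deeper, with a median of 6503 transcripts against 2612. Levels are given as CPM, transcripts per 1000000 after scaling, and each list was also compared among wells of 2000 to 8000 transcripts. For this contrast those counts are given for the GABA and synaptic, transcription factor and chromatin lists. The other lists are given without that check on depth.

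Of 1794 genes tested with limma voom, 254 were higher in dividing neuroblasts (14.2%) and 198 lower (11%), at an adjusted p under 0.05. Of these, 112 higher and 28 lower genes met the filter on low values through 1 class alone, so that they had to differ, and their fitted folds are not given. The cell cycle lists gave 67 of the higher calls and all 67 of their tested genes were higher, which the division sum makes a description of the members and no test. Outside these lists 198 genes were lower and 187 higher, and some of the higher ones are known to follow the cycle as well. Those lower included many neuronal genes, and those higher included genes of chromatin, nuclear transport and splicing.

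GABA and synaptic genes were lower in dividing neuroblasts. Of 15 tested, 10 passed as lower and 0 as higher, with a median log2 fold of −0.93 against −0.01 over all genes. Gad1 (chromosome 2, 70553072 to 70602014, plus strand), the main GABA-making enzyme, stood at 426, 293, 504 and 516 CPM in dividing neuroblasts of libraries 1 to 4 and at 1397, 1225, 1369.8 and 1483 CPM in division-sum-0 neuroblasts of the same libraries. Every dividing sum lay below every other sum. Of all 1794 genes tested, 42.5% went the same way in every library pair. The log2 fold was −1.63 ± 0.16 (SE, n = 4 libraries, limma voom adjusted p = 2.9e-08). Gad2, which makes GABA for synaptic release, fell less, by 0.93 ± 0.17 on the log2 scale (limma adjusted p = 1.7e-04), from 1017 ± 232 to 534 ± 109 CPM (SD). Among wells of 2000 to 8000 transcripts Gad1 kept a log2 fold of −1.25 (limma adjusted p = 6.6e-07), and 5 of 12 genes of the list were lower and 0 higher.

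Meg3 (chromosome 12, 109541001 to 109571726, plus strand), a long noncoding RNA of maturing neurons, stood at 46.9, 56.1, 337 and 93.9 CPM in dividing neuroblasts and at 1017, 1401, 1414 and 939.5 CPM in the others. Library 3 had the highest dividing value, and the groups still did not overlap. Outside library 3 the dividing sums of Meg3 lay below the filter on low values, which it met through the division-sum-0 sums. Its log2 fold of −2.98 ± 0.34 (SE), and −2.30 among wells of 2000 to 8000 transcripts, is therefore a description. In the same list, the glutamate receptor gene Gria2 fell by 1.13 on the log2 scale, and it did not pass among wells of 2000 to 8000 transcripts (limma adjusted p = 0.0504).

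Neuroblast cytoskeleton genes were mostly lower: 15 of 27 tested fell and 2 rose, with a median log2 fold of −0.56. Nrep, which encodes a small neuronal protein, stood at 917, 614, 1527 and 1075 CPM in dividing neuroblasts against 2675, 3016, 3291 and 3439 CPM. The highest dividing value was again in library 3, below all division-sum-0 values. The log2 fold was −1.57 ± 0.13 (SE, limma adjusted p = 5.5e-09). Dpysl5, a collapsin response mediator of growth cones, fell by 1.47 ± 0.25. The 2 that rose were Tubb5, by 0.36 ± 0.09, and Stmn1, by 0.29 ± 0.06, a tubulin and a tubulin-binding protein that dividing cells also use. Of the gate genes, which are a description here, Dcx was at 554 ± 99.4 CPM in dividing neuroblasts against 1358 ± 62.2, and Sp9 at 436 ± 52.8 against 494 ± 85.4 (SD, n = 4).

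Adhesion and guidance genes followed: 7 of 11 fell and 0 rose, with a median log2 fold of −0.62. Prokr2 (chromosome 2, 132337733 to 132385447, minus strand), the receptor for prokineticin 2 that guides neuroblasts into the olfactory bulb, was at 0, 0, 11.1 and 20.8 CPM in dividing neuroblasts and at 154, 126.2, 137 and 182 CPM in the others. These are a description: Prokr2 had 3.01 transcripts in all dividing sums together against 38.3, it met the filter on low values only through the division-sum-0 group, and it is 1 of the 7. Cd24a, the surface protein used to sort neuroblasts, fell by 0.62 ± 0.11, from 3025 ± 378 to 1939 ± 666 CPM.

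Neuroblast transcription factors split. Of 22 tested, 10 fell and 1 rose, with a median log2 fold of −0.45. The zinc finger gene Myt1 was at 165, 33.7, 100.1 and 72.96 CPM in dividing neuroblasts against 341, 273, 372 and 264 CPM (log2 fold −1.69 ± 0.35). Outside library 1 its dividing sums lay below the filter on low values, which it met through the division-sum-0 sums, so this is a description. Sp8 and Pbx3, factors of olfactory interneuron subtypes, and Meis2 each fell by 1.10. The gene that rose was Dlx2, an early determinant of this lineage, by 0.53 ± 0.16 (limma adjusted p = 0.0183), and it did not pass among wells of 2000 to 8000 transcripts, where 7 of 20 factors fell and 0 rose. Dlx1 (log2 fold −0.07) and Sox11 (−0.12) did not pass. Dlx1as, one of the class markers, was at 238, 238, 412 and 346 CPM against 85.1, 209.9, 207 and 237 CPM and missed the threshold (log2 fold 0.73 ± 0.28, limma adjusted p = 0.0597).

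**Figure D3:**
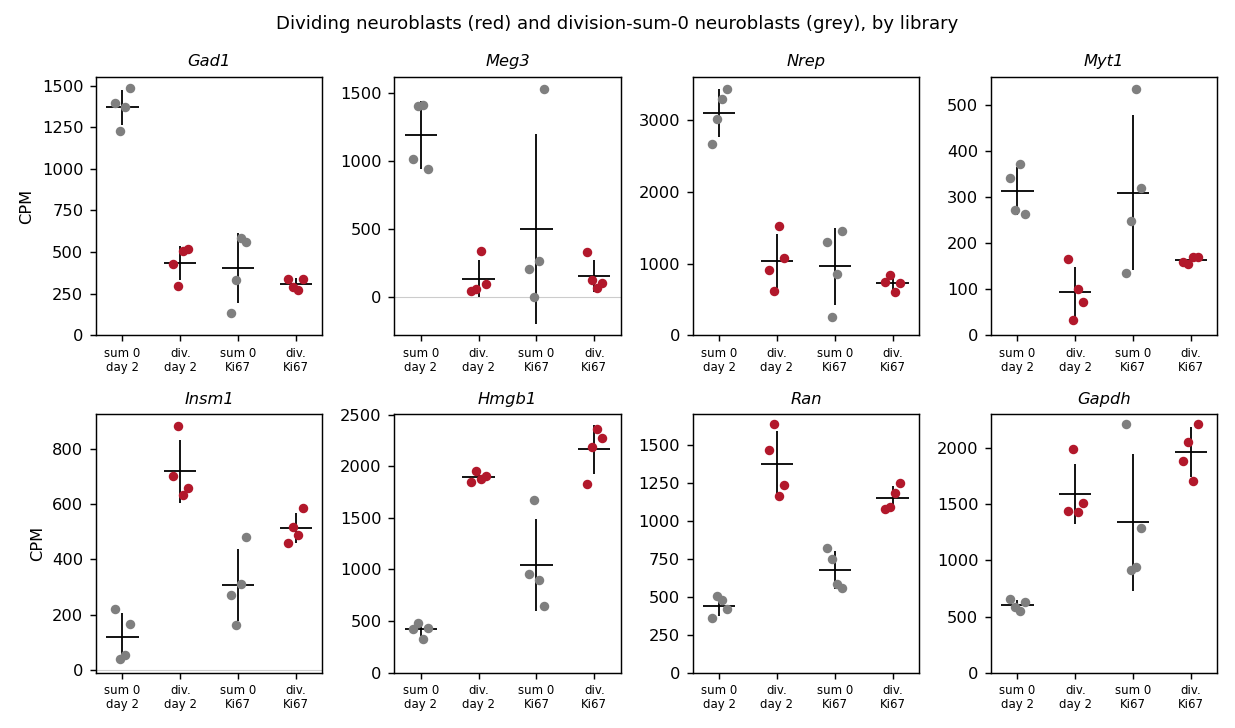
Levels (CPM, linear axes) of 8 genes in dividing neuroblasts (red) and division-sum-0 neuroblasts (grey), 1 point per library, with mean and SD over 4 libraries as black lines. The left pair of columns in each panel is day-2 tdTomato and the right pair Ki67-RFP; the 4 neuronal genes of the top row were low in dividing neuroblasts at day 2, and the 4 genes of the bottom row high.

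Of 8 tested genes of D cyclins, kinases and cell cycle exit, 4 rose and 1 fell. Btg1, an antiproliferative gene, was at 536, 533, 640.1 and 494 CPM in dividing neuroblasts against 1269, 1205, 1508 and 1384 CPM (log2 fold −1.29 ± 0.14, limma adjusted p = 2.1e-07). The groups were far apart in all 4 libraries. Insm1 (chromosome 2, 146221921 to 146225020, plus strand), a zinc finger repressor of newborn neurons and basal progenitors, went the other way, at 700.2, 881, 632 and 658 CPM against 221, 41.9, 54.8 and 167 CPM. Some of its division-sum-0 sums lay below the filter on low values, which Insm1 met through dividing neuroblasts. Its log2 fold of 2.53 ± 0.38 (SE), and 2.24 among wells of 2000 to 8000 transcripts, is therefore a description, and its size is uncertain. Cdk4 rose by 0.64 ± 0.15. The retinoblastoma gene Rb1 and its relative Rbl1, the other 2 of the 4, met the filter only through dividing neuroblasts, with 62.3 transcripts against 15.04 and 72.5 against 6.01. Ccnd2 was at 2944 ± 264 against 2901 ± 307 CPM and the inhibitor gene Cdkn1b at 413 ± 95.7 against 394 ± 70.03, with log2 folds of 0.02 ± 0.08 and 0.08 ± 0.20 that did not pass.

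Chromatin and nuclear transport genes rose. Of 25 chromatin genes outside the cell cycle lists, 14 rose and 1 (H3f3a) fell, with a median log2 fold of 0.84, and among wells of 2000 to 8000 transcripts 7 of 16 rose and 1 fell. Hmgb1, an abundant DNA-bending protein, was at 1843, 1954, 1875 and 1906 CPM in dividing neuroblasts against 427, 483, 329.8 and 432 CPM. The dividing sums lay within a narrow band, and the log2 fold was 2.17 ± 0.17 (SE, limma adjusted p = 1.4e-09). H2afz, the histone variant H2A.Z, rose by 2.04 ± 0.14, Hmgn2 by 1.39 ± 0.07 and Anp32e, which removes H2A.Z, by 1.90 ± 0.23. Several of these genes have near-identical processed copies in the genome, so their counts are uncertain in level.

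Of 9 nucleolus and nuclear transport genes, 6 rose and 0 fell. Ran, the GTPase of nuclear transport and of the spindle, was at 1470.2, 1639, 1164 and 1237 CPM against 359, 504, 481 and 418 CPM (log2 fold 1.60 ± 0.17, limma adjusted p = 1.7e-07). The importin gene Kpna2, at 709.6 ± 317 against 15.4 ± 17.9 CPM, is 1 of the 6 and met the filter only through dividing neuroblasts. Splicing factors and hnRNPs gave 11 of 39 higher and 0 lower, led by small nuclear ribonucleoproteins such as Snrpd1 (1.18 ± 0.27). Cytosolic ribosomal protein genes gave 3 of 75 higher and 4 lower, a smaller share in each direction than over all genes tested. Of 6 glycolysis genes Gapdh rose by 1.36 ± 0.15 and Pkm by 1.10 ± 0.28, and Pfkp, which met the filter only through division-sum-0 neuroblasts, had 21.1 transcripts against 57.3. Only 5 of 29 progenitor genes could be tested, and Vim (0.96 ± 0.21) and Ptprz1 rose.

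Ki67-RFP gave the same contrast with fewer division-sum-0 wells, 3 to 7 per library, and was tested after the data had been seen. Of 2241 genes, 107 were higher (4.77%) and 7 lower (0.312%), 5.09% in all, and 56 of the higher ones were in the cell cycle lists. Without library 3 the count fell from 114 to 15. Hmgb1 rose again, at 1825, 2187, 2361 and 2274 CPM against 955, 1676, 895 and 641 CPM (log2 fold 1.06 ± 0.29, limma adjusted p = 0.0478). H2afz rose by 1.40 ± 0.25, Hmgn2 by 0.75 ± 0.18 and Anp32e by 1.92 ± 0.51.

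In Ki67-RFP 0 of 28 neuroblast cytoskeleton genes passed by limma voom (1 higher and 1 lower at an unadjusted p under 0.05, median log2 fold −0.32), as did 0 of 11 adhesion genes (0 higher and 3 lower, −0.28) and 0 of 10 neuronal RNA-binding protein genes (1 higher and 1 lower, −0.14). Gad1 was at 337, 288, 270.1 and 336 CPM in dividing neuroblasts against 135, 331, 582 and 560.2 CPM in the others (log2 fold −0.44 ± 0.44, limma adjusted p = 0.737). Meg3 was at 328, 121, 63.5 and 102 CPM against 203, 0, 267 and 1529.6 CPM. The division-sum-0 sums scattered widely in both genes and overlapped the dividing sums. Summed markers of mature olfactory bulb neurons ran from 0 to 1518 CPM in these division-sum-0 sums, against 5.17 to 162 CPM in Ki67-RFP members. Those of astrocytes and quiescent stem cells ran from 555 to 3687 CPM, against 1023 to 1800 CPM. The part of other cells in this contrast was not tested. Of the 15 GABA and synaptic genes 0 passed by limma voom, and 0 had an unadjusted p under 0.05, with a median log2 fold of −0.22. The difference between the sorts in the Gad1 contrast was −1.22 ± 0.41 and did not pass (limma adjusted p = 0.23 for the interaction), nor did that of Meg3 (−1.95 ± 0.84) or of Insm1 (1.89 ± 0.55). In a joint fit of both sorts, Gad1 was lower by a log2 fold of −1.44 ± 0.18 (n = 8 libraries, limma adjusted p = 4.2e-07). Insm1, which at day 2 met the filter through dividing neuroblasts, was higher by 1.84 ± 0.31, and this is a description.

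Dividing neuroblasts were next set against dividing wells below the gate, which hold 3 or more division transcripts and too few neuroblast transcripts. This contrast was made in Ki67-RFP, with 127 members (27 to 38 per library) and 98 wells below the gate (24 to 26 per library). Here the wells below the gate were deeper, with a median of 9191 transcripts against 6214. Of 4497 genes, 472 were higher in dividing neuroblasts (10.5%) and 356 lower (7.92%) by limma voom. Of these, 41 higher and 27 lower genes met the filter through 1 class alone and are given as levels only.

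The neuroblast lists were higher, which follows from the gate and is a description: 18 of 23 transcription factors, 24 of 28 cytoskeleton genes and 15 of 19 GABA and synaptic genes. Gad1 stood at 329, 284, 263 and 325 CPM above the gate and at 13.5, 60.5, 20.6 and 35.6 CPM below it. Dlx1as stood at 497 ± 58.4 against 66.2 ± 54.3 CPM, Dlx5 at 201 ± 25.6 against 30.1 ± 17.1, while Dlx1 (1358 ± 145 against 827 ± 71.9) and Dlx2 (1139 ± 84.97 against 757 ± 106) were abundant on both sides of the gate.

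Progenitor genes were lower above the gate: 9 of 19 fell and 3 rose, with a median log2 fold of −0.63 against 0.01 over all genes. Of the 9, Egfr, Dll1 and Hes5 met the filter on low values only through the wells below the gate, so their levels are a description. Egfr (chromosome 11, 16752203 to 16918158, plus strand) was at 15.6, 42.2, 35.9 and 14.04 CPM in dividing neuroblasts and at 145, 175, 149 and 211 CPM below the gate. These rest on 23.1 and 157 transcripts in all. The groups did not overlap. Of all 4497 genes tested, 35.4% went the same way in every library pair of this contrast.

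Hes5 (chromosome 4, 154960923 to 154962371, plus strand), a Notch target that holds back neuronal genes, was at 5.19, 0, 5.13 and 23.4 CPM against 76.99, 188, 121 and 288 CPM, on 7.02 and 158 transcripts. The Notch ligand gene Dll1 was at 31.2, 33.7, 5.13 and 42.1 CPM against 104, 69.8, 98.8 and 103 CPM. Neither gene's groups overlapped. Hes6, which acts in newborn neurons, fell by 1.77 ± 0.18. Fabp7, the lipid carrier of radial glia, fell by 1.85 ± 0.19. Tnfrsf19, the gene of Troy, stood at 6.10 ± 2.88 CPM in dividing neuroblasts against 127 ± 67.9 CPM, on 5.01 and 120 transcripts, and also met the filter only through the wells below the gate. The 3 that rose were Sox1, Sox2 and Vim; Sox2, which marks the whole lineage up to young neuroblasts, did so by 0.30 ± 0.10, from 575 ± 33.8 to 708 ± 31.5 CPM. With scaling by total transcripts only, 2 genes of the list rose and 9 fell. Gsx2, a striatal progenitor factor, did not pass (67.9 ± 27.1 against 74.1 ± 24.1 CPM).

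Of 16 tested genes of D cyclins, kinases and cell cycle exit, 7 rose and 3 fell across the gate, with a median log2 fold of 0.10. Ccnd1 (chromosome 7, 144929931 to 144939925, minus strand) was at 10.4, 8.44, 5.13 and 0 CPM in dividing neuroblasts and at 108, 156, 182 and 87.3 CPM below the gate. It is 1 of the 3, met the filter only through the wells below the gate, and had 5.01 and 122 transcripts. Ccnd2 was higher, at 5337 ± 274 against 4321 ± 430.2 CPM (0.30 ± 0.05). Of genes that restrain division, Btg1 rose by 1.49 ± 0.15 and the inhibitor genes Cdkn1b by 0.85 ± 0.13 and Cdkn2d by 1.31 ± 0.29, while Gadd45g fell by 1.56 ± 0.16 and Btg2 by 1.07. Insm1 rose by 0.42 ± 0.12.

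**Figure D4:**
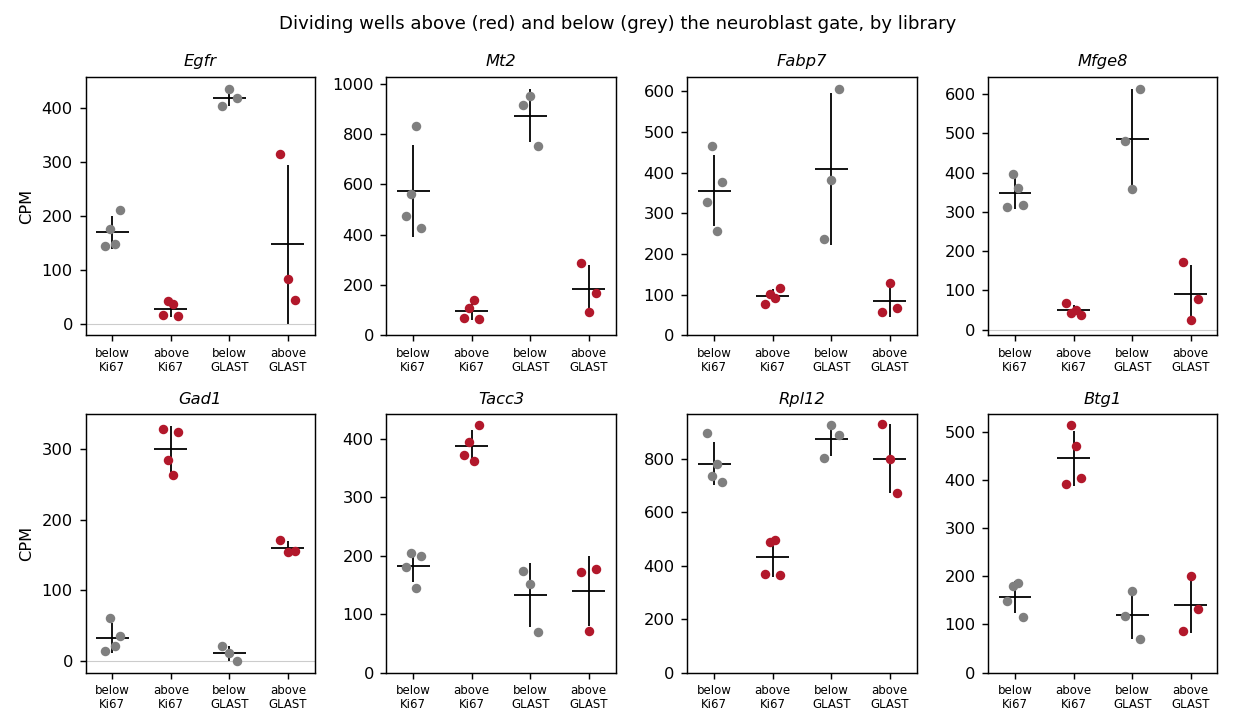
Levels (CPM, linear axes) of 8 genes in dividing wells below the neuroblast gate (grey) and above it (dividing neuroblasts, red), 1 point per library, with mean and SD as black lines. The left pair of columns in each panel is Ki67-RFP (4 libraries) and the right pair GLAST/EGF (3 libraries); Egfr, Mt2, Fabp7 and Mfge8 were lower above the gate in both, whereas Tacc3, Rpl12 and Btg1 differed in Ki67-RFP and did not pass in GLAST/EGF.

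Mitotic genes were higher and replication genes lower above the gate in Ki67-RFP. Of 60 G2 and mitosis genes, 33 rose and 0 fell, with a median log2 fold of 0.51, and of 43 S phase genes 7 fell and 0 rose; 1 of the 7, Ung, met the filter only through the wells below the gate. Tacc3, which builds spindle microtubules, was at 372, 395, 362 and 424 CPM against 181, 205, 144 and 199 CPM (log2 fold 1.08 ± 0.15, limma adjusted p = 9.6e-07). Hells, a replication-linked chromatin remodeller, fell by 1.10 ± 0.24, Mcm3 by 0.82 ± 0.20 and Pcna by 0.41 ± 0.07. The raw division sum lets a deep well in at a lower mitotic level, and wells below the gate were deeper. Among wells of 2000 to 8000 transcripts 10 of 44 mitotic genes rose and 0 fell, and Tacc3 kept a log2 fold of 1.09. By limma voom the mitotic list gave 0 of 57 calls at day 2, where 5 genes were higher and 1 lower at an unadjusted p under 0.05, and 0 of 35 in GLAST/EGF, where 4 were lower.

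Genes of growth were lower in dividing neuroblasts of Ki67-RFP. Of 75 ribosomal protein genes 39 fell and 0 rose (median log2 fold −0.27), of 16 nucleolus and nuclear transport genes 12 fell and 0 rose (−0.52; 1 of the 12, Gar1, met the filter only through the wells below the gate), and of 9 glycolysis genes 7 fell and 0 rose (−0.48). Rpl12 was at 371, 489.8, 497 and 368 CPM against 896, 739, 782 and 716 CPM (log2 fold −0.85 ± 0.12, limma adjusted p = 1.3e-06). Nop56, of the box C/D ribonucleoproteins, was at 278, 237, 273 and 222 CPM against 390.4, 524, 613 and 487 CPM (−0.99 ± 0.14). Ldha, which makes lactate, fell by 1.37 ± 0.33. At 2000 to 8000 transcripts per well, 25 of 75 ribosomal protein genes, 6 of 12 nucleolar genes and 4 of 5 glycolysis genes fell, and 0 rose.

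Astrocyte and quiescent stem cell genes moved with this contrast. Of the 15 genes of that list, 8 could be tested and 7 fell, among them Mt2 (log2 fold −2.55 ± 0.18), Mt1 (−2.06 ± 0.22) and the GLAST gene Slc1a3 (−1.56 ± 0.23). The summed list ran from 1023 to 1800 CPM in dividing neuroblasts and from 2441 to 3088 CPM below the gate in Ki67-RFP. Gfap and Agt stood at 0 in the dividing neuroblasts, and Agt stood at 0 below the gate as well. Its part in the progenitor and growth results was not tested.

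The same contrast could be made with fewer wells in other sorts, by a choice made after the data had been seen. In GLAST/EGF, with 3 libraries and 17 members, 93 of 2341 genes were higher (3.97%) and 31 lower (1.32%), or 5.3% in all. GLAST/EGF library 1 had 2 members and was left out. Egfr (log2 fold −2.01 ± 0.47) and Fabp7 (−2.22 ± 0.40) fell. Egfr stood at 315, 82.4 and 44.1 CPM in GLAST/EGF members and at 404, 436 and 419 CPM below the gate, so that 1 library held a level near the lowest of those. By limma voom 0 of 75 ribosomal protein genes passed there, and at an unadjusted p under 0.05 there were 1 higher and 3 lower. At day 2, with 3 to 10 wells below the gate per library, 79 of 1975 genes were higher (4.00%) and 50 lower (2.53%), or 6.53% in all. Summed microglia and macrophage markers ran from 15.1 to 1182 CPM in these wells below the gate, against 10.8 to 31.1 CPM in day-2 members. The part of such cells in the day-2 contrast was not tested. Fabp7 fell by 2.14 ± 0.37, Gadd45g by 2.21 ± 0.44 and Rpl12 by 0.70 ± 0.19, 14 of 75 ribosomal protein genes fell and 0 rose, and Btg1 rose by 1.29 ± 0.30. The counts rest on few libraries: GLAST/EGF gave 11 calls without library 2 and 53 without library 3 or library 4, and day 2 gave 39 without library 3 and 63 without library 4. Whether the sorts differ in these contrasts was not tested.

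Members of the 2 large sorts were also compared with each other, day-2 tdTomato (53 wells) against Ki67-RFP (127 wells). Their depths were close, with medians of 6503 and 6214 transcripts. Of 3219 genes, 313 were higher at day 2 (9.72%) and 197 lower (6.12%) by limma voom. Mouse line, allele of Mki67, plate and flow cell changed with the sort and cannot be told apart from time since labelling. The day-2 sums are the same as in the contrasts above, so the lists are not independent of them.

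The genes of the division sum and the gate chose the members, and their levels in the sorts are a description. Mki67 was at 358, 546, 387 and 277 CPM at day 2 and at 787, 869, 809 and 1137 CPM in Ki67-RFP. The groups did not overlap, as for 20.6% of the 3219 genes tested. Both lines carry an insertion in the Mki67 gene, homozygous in Ki67-RFP. The other division genes had log2 folds of 0.31 ± 0.13 (Top2a), 0.39 ± 0.18 (Ube2c) and 0.00 ± 0.20 (Birc5). Of 57 other mitotic genes 13 were higher at day 2 and 1 lower, among them Ect2 (1.31 ± 0.25) and Bub1 (1.15 ± 0.21), which act in cytokinesis and at kinetochores. Cdk1 was at 673, 1067, 899 and 619 CPM against 401, 600.0, 253 and 459 CPM (0.94 ± 0.21, limma adjusted p = 0.0028). Rrm2, of ribonucleotide reductase, was higher by 1.00 ± 0.12.

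Of 23 neuroblast transcription factors, 9 were lower at day 2 and 0 higher. Sox4, a factor of early neuronal differentiation, was at 104, 142, 192 and 133 CPM against 747, 775, 747 and 863 CPM (log2 fold −2.43 ± 0.21, limma adjusted p = 7.3e-09). Sox11, its relative, was at 1997, 1992, 2125 and 1834 CPM against 4011, 3984, 4238 and 3362 CPM (−0.96 ± 0.10). Nfix was lower by 1.28 ± 0.16 and Bcl11b by 0.88 on the same scale. Ccnd2 was at 3059.8, 2532, 2724 and 3119 CPM against 5257, 5237, 5727 and 5111 CPM (−0.90 ± 0.08), and Sox2 was lower by 0.67 ± 0.16. The groups did not overlap for Sox4, Sox11 or Ccnd2, as for 20.6% of all genes tested. Called genes taken from the lists by rule had to have such groups here, so this is no further support. The folds of Sox4, Sox11 and Ccnd2 were −2.37, −0.90 and −1.22 among wells of 2000 to 8000 transcripts.

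Of the gate genes, Dcx was at 537 ± 94.9 CPM at day 2 against 635 ± 32.7 CPM, Sp9 at 423 ± 54.7 against 373 ± 49.8, and Dlx6os1 had a log2 fold of 0.63 ± 0.14. Dlx1as was lower, at 233, 229.7, 395 and 338 CPM against 409, 511, 536 and 533 CPM (−0.74 ± 0.19, limma adjusted p = 0.0085). Gad1 was at 422 ± 99.9 against 300.1 ± 32.04 CPM and did not pass (limma adjusted p = 0.0836). Genes outside the neuroblast and cell cycle lists differed widely between the sorts: Rn45s, the ribosomal RNA precursor, stood at 34.5 to 128 CPM at day 2 and 19031 to 26193 CPM in Ki67-RFP, Slc23a1 at 604 to 958 against 36.2 to 87.3 CPM, and Actb at 1002 to 1782 against 4729.7 to 5139 CPM. Their part in the differences between the sorts was not tested.

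**Figure D5:**
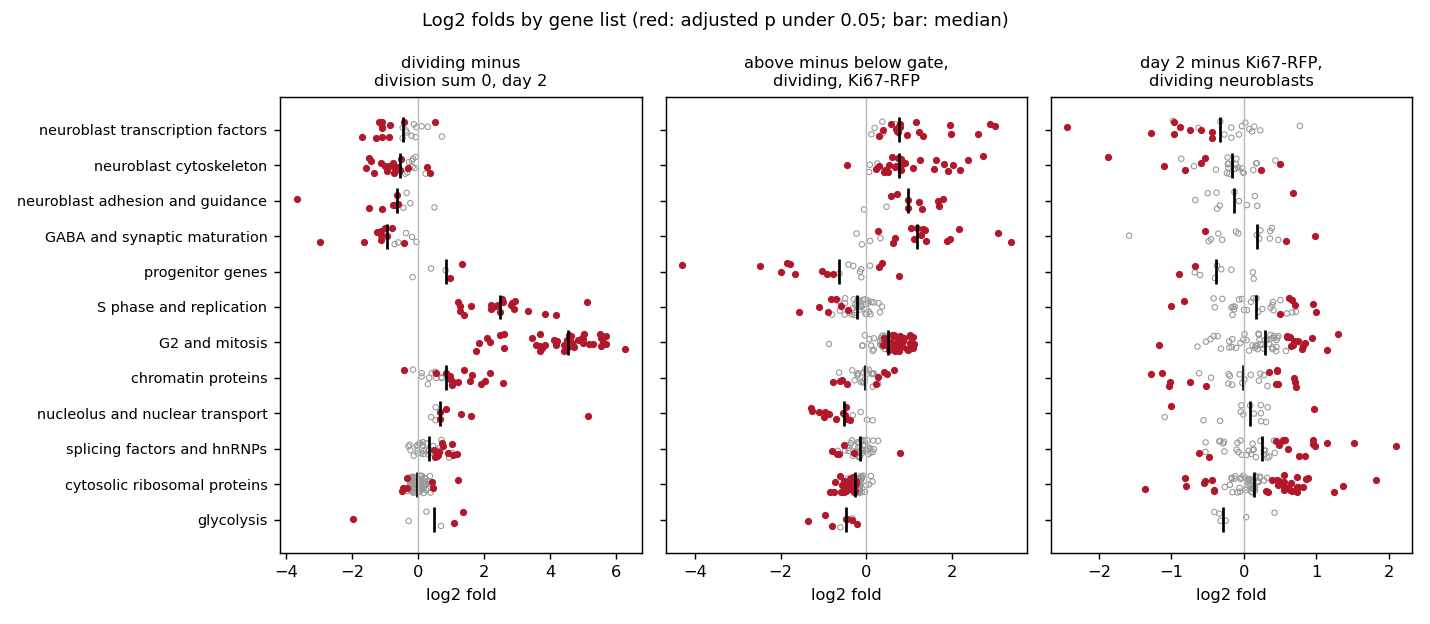
Log2 folds of the genes in 12 lists, 1 point per tested gene, in the contrasts of dividing against division-sum-0 neuroblasts at day 2 (left), dividing wells above against below the neuroblast gate in Ki67-RFP (middle) and dividing neuroblasts of day 2 against Ki67-RFP (right). Red points passed an adjusted p under 0.05, grey points did not, and black bars are list medians; GABA and synaptic genes had medians of −0.93, 1.20 and 0.18.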

How the data were processed

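Single cells of 28 libraries were read from the deposited tables, 1 column per well. The submitters' processing notes name BWA 0.6.2-r126 as the aligner and mm10 as the genome build; other steps are not given in the sources used here. The deposited values are counts corrected for barcode collisions by the authors: 4800995 of 4801006 values above 0 equalled a whole number of the 256 possible random barcodes after that correction, within a tolerance of 1e-06. They are not whole and were recorded as another unit. No mitochondrially encoded gene was among the 17690 gene rows; 7 symbols lay on more than 1 chromosome.

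Wells were classed by the rule given in the report. No doublet caller was run, since cells were sorted 1 per well. Transcripts were summed per library and class, scaled by trimmed mean of M values, and tested with limma voom (limma 3.58.1, R 4.3.3), with the library as a block where classes of the same library were compared. Genes needed about 10 transcripts at the median library size in as many sums as the smaller group had, and 15 in all. P-values were adjusted by Benjamini-Hochberg over all tested genes, with calls at 0.05. A class entered with at least 5 wells in a library (3 in the contrasts added after the data had been seen: Ki67-RFP dividing against division-sum-0, both sorts jointly, their interaction, and above against below the gate at day 2 and in GLAST/EGF). Shares were tested by 2-sided exact permutation over libraries (scipy 1.17.1). The limma voom fit was also run on simulated sums for the day-2 contrast, the gate contrast in Ki67-RFP and the contrast between sorts. The permutation tests and the added contrasts were not simulated. Limits for a share of 0 use 3 wells.

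The members and the 27 gene lists were chosen with earlier results of these data known. Named genes were the rule's genes and markers, up to 4 per list with the largest fold among called genes that changed the same way in every library pair (between sorts, with groups that did not overlap) at a mean of at least 50 CPM, or the member with the highest level where none was called, and the 8 highest and 8 lowest folds over all genes on the same conditions; 25 further genes were chosen after their values were seen. Alternatives were thinning to 1000 transcripts, wells of 2000 to 8000 transcripts, no filter, a gate of 30, other division thresholds, other scalings, the block, and each replicate left out.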

Additional observations from a re-analysis of the deposited data

Results flagged for a closer look

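In 97 groups of 4 libraries checked for a value far from the others, 3 were found, where chance gives about 1 in 20 groups. Qk, an RNA-binding protein gene of progenitors and glia, stood apart at 537 CPM in dividing neuroblasts of day-2 library 2. In division-sum-0 neuroblasts of day 2, the cyclin gene Ccnb1 stood apart at 13.9 CPM in library 4 and Cdk4 at 495 CPM in library 3.

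The contrast of dividing against division-sum-0 neuroblasts differed between day-2 tdTomato and Ki67-RFP for 12 of 1641 genes. This was by the interaction term of the limma voom fit (adjusted p under 0.05), and each had a larger log2 fold at day 2. Of the 12, 9 are in the cell cycle lists, which go with the division sum, so these are a description and no test. Division-sum-0 sums of Ki67-RFP held 3 to 7 wells each, and Cdk1 was found in 6 of the 125 division-sum-0 wells of all sorts. The difference of the log2 folds was 4.53 for Cdk1, 3.60 for Pbk, 3.33 for Cenpa, 3.03 for Kif23, 2.85 for Ckap2l, 2.53 for Kif4, 2.52 for Rrm2 and 2.24 for Fam64a, all of them genes of replication or mitosis. It was 2.42 for Ube2c and 2.34 for Top2a, which are at 0 in division-sum-0 wells by the rule, so that these fitted folds depend on the size of the sums and are no estimate. Kif23, Kif4 and Fam64a also met the filter on low values only through dividing neuroblasts. It was 2.19 for the growth factor gene Mdk and 2.05 for the transporter gene Slc23a1. The count of such genes was 3 without day-2 library 3, 5 without day-2 library 2, 4 without Ki67-RFP library 2 and 7 without Ki67-RFP library 4, and 11 to 18 without each of the others.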

How the results depend on the processing

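Of the 452 genes called between dividing and division-sum-0 neuroblasts at day 2, the contrast gave 53 after thinning to 1000 transcripts (255 genes tested and 20.8% called, in place of 1794 and 25.2%), 205 among wells of 2000 to 8000 transcripts, 879 without a filter on low values and 244 with the gate at 30 per 10000. Without 1 replicate it gave 372 to 377, and without the replicate block 442. Higher genes made up 56.2% of the calls, 50.1% when only total transcripts were used for scaling and 67.6% with the gate at 30. Day-2 against Ki67-RFP members gave 510, and 52, 199, 1139 and 259 under the same 4 settings, 384 to 433 without 1 replicate and 538 with a replicate block. The replicate numbers did not pair these libraries (1 of 4 correlated best with its own number). Higher genes made up 61.4% there and 49.2% under limma trend. Members against dividing wells below the gate gave 828, then 93 when thinned and 296 among wells of 2000 to 8000 transcripts, 594 to 723 without 1 replicate and 744 without the replicate block. The difference in the share of gate wells that divide was 36.3 percentage points and 33.6 to 37.9 without 1 replicate, where 3 against 4 libraries cannot go below p = 0.0571 (exact permutation test). The difference in the share of passing wells was 15.8 points, 12.7 with a division sum of 5 per 10000 (exact permutation p = 0.0571), 10.4 with thinned wells (exact permutation p = 0.0571) and 13.4 to 17.6 without 1 replicate. Elavl3, lower in dividing neuroblasts at day 2, had a log2 fold of 0.023 among wells of 2000 to 8000 transcripts; the cause was not tested. In the contrasts chosen after seeing the data, calls without 1 replicate ran from 15 to 121 (Ki67-RFP, dividing against division-sum-0). Of the named genes that passed, 48 of 73 between dividing and division-sum-0 neuroblasts, 34 of 63 between the sorts and 63 of 87 across the gate passed under every alternative run for them. A test of the deposited values as raw counts was not run, because they are not whole.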

Other observations

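Against division-sum-0 neuroblasts at day 2, where 14.2% of all tested genes were higher and 11% lower, respiratory chain genes gave 5 of 54 higher and 0 lower, with a median log2 fold of 0.28. Against dividing wells below the gate in Ki67-RFP, where 10.5% were higher and 7.92% lower, they gave 2 of 75 higher and 9 lower. Proteasome subunits gave 0 of 19 calls in the first contrast by limma voom, with 0 at an unadjusted p under 0.05, and 0 higher and 3 lower of 33 in the second. These shares were near or below those over all genes in most cases, and no difference is read from them. Neuronal RNA-binding protein genes gave 4 of 9 lower at day 2 (Elavl3, Celf4, Rbfox2 and Ptbp2) and Qk higher. Immediate early genes gave 2 of 4 lower in dividing neuroblasts at day 2, Jund and Egr1.

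Among members, Prom1/CD24 wells had a median G2 and mitosis level of 252 transcripts per 10000 and an S phase level of 60.6 (8 wells), and GLAST/EGF wells 66.1 and 131 (19 wells). Between day-2 and Ki67-RFP members, where 9.72% of all tested genes were higher at day 2 and 6.12% lower, ribosomal protein genes gave 25 of 75 higher and 8 lower, and splicing factors and hnRNPs 13 of 44 higher and 2 lower. Egr1 was lower at day 2 by a log2 fold of −1.51, and with the gate at 30 per 10000 it did not pass (limma adjusted p = 0.0989).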
